A study of Arabidopsis thaliana with 9 samples.

Results

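Expansins, extensins and xyloglucan endotransglucosylases were described in seedlings of 2 Arabidopsis thaliana lines, each set against the wild type. Members were all rows of the authors' deposited table whose description contains expansin, extensin or xyloglucan endotransglucosylase, in any letter case. This gave 119 of 37328 rows, of which 34 were expansins, 56 extensins and 29 xyloglucan enzymes (XTH). RNA sequencing covered whole Col-0 seedlings of RPGE2-OX, a line that overexpresses RPGE2, of glk12, in which GLK1 and GLK2 are both mutated, and of the wild type, with 3 libraries each and 9 in all. All seedlings grew on plates for 7 days in continuous white light at 22 °C after 3 days of cold. The light was 50 µmol per m2 per s and the cold was at 4 °C. The sources used here do not give the promoter that drives RPGE2, the number of transgenic lines or the mutant alleles.

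The plant primary wall is a network of cellulose microfibrils embedded in xyloglucan and pectin, and a cell can grow only where that network yields. Expansins loosen the contacts between cellulose and xyloglucan without cutting either polymer. XTH enzymes cut xyloglucan chains and join them to other chains, and some hydrolyse them. Extensins are hydroxyproline-rich glycoproteins that are cross-linked into a scaffold in the wall, and several serve tip-growing root hairs. GLK1 and GLK2 switch on genes of the chloroplast.

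The authors' deposited table sets each line over the wild type with 1 log2 ratio and 1 q value per gene. Its columns hold neither levels nor read counts, so library depth is unknown and no value per sample or SD can be given. The spread between libraries enters only through the q values, and, as no label ties the replicates to separate cultures, that spread may be technical. Both comparisons share the wild type libraries. Errors given here are implied standard errors, the size of a deposited ratio divided by the normal quantile of the p behind its q, and they are upper bounds at the lowest q. A gene is called at a deposited q below 0.05. Across all genes the authors' deposited table calls 6.55% of 21680 tested genes in RPGE2-OX and 5.67% of 21843 in glk12. The targeted GLK1 had deposited log2 ratios of 0.45 in RPGE2-OX (q = 0.013) and -2.64 in glk12 (q = 0.0019), and GLK2 had 0.40 (q = 0.038) in RPGE2-OX and -1.41 (q = 0.0019) in glk12. The table names no locus RPGE2, so the overexpressed gene was not checked. AT3G55240, described as a protein of unknown function, had deposited log2 ratios of 4.79 in RPGE2-OX and -6.46 in glk12. It was listed here beside GLK1 and GLK2, but its description does not name RPGE2. None of 7 pollen marker genes was tested in either line, and both lines had tested values for all 5 root and all 12 root hair genes listed.

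Called members were mostly lower in both lines. The authors' deposited table has 19 of 92 tested members lower in RPGE2-OX, where 3.98% of all tested genes were lower, and 2 higher, where 2.57% of all tested genes were higher. In glk12 the same table calls 19 of 92 tested members lower, beside 3.04% of all tested genes, and 4 higher, beside 2.63%. These shares come to 20.7% lower in each line. In all, 25 members were called in at least 1 line. Of these, 17 were lower in both, 2 were higher in both and 0 had opposite calls. Over all genes 1994 were called in at least 1 line, of which 423 were lower in both, 227 higher in both and 13 opposite. Opposite calls were thus rare over all genes too. A count of shared calls is a description here, because the wild type libraries enter both ratios. In whole seedlings, fewer cells of a type and less RNA per cell cannot be told apart.

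The tested members do not include every row. A q of 1 was taken as untested, and 26 members were untested in both lines. Among them were the beta-expansins EXPB2, EXPB4, EXPB5 and EXPB6, the alpha-expansins EXPA2, EXPA12, EXPA22, EXPA23, EXPA24 and EXPA25, and XTH1, XTH2 and XTH3. The extensin-like AT2G34700 was tested only in RPGE2-OX, and XTH29 only in glk12. An infinite deposited ratio was listed for 10 members, none of them tested.

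**Figure D1:**
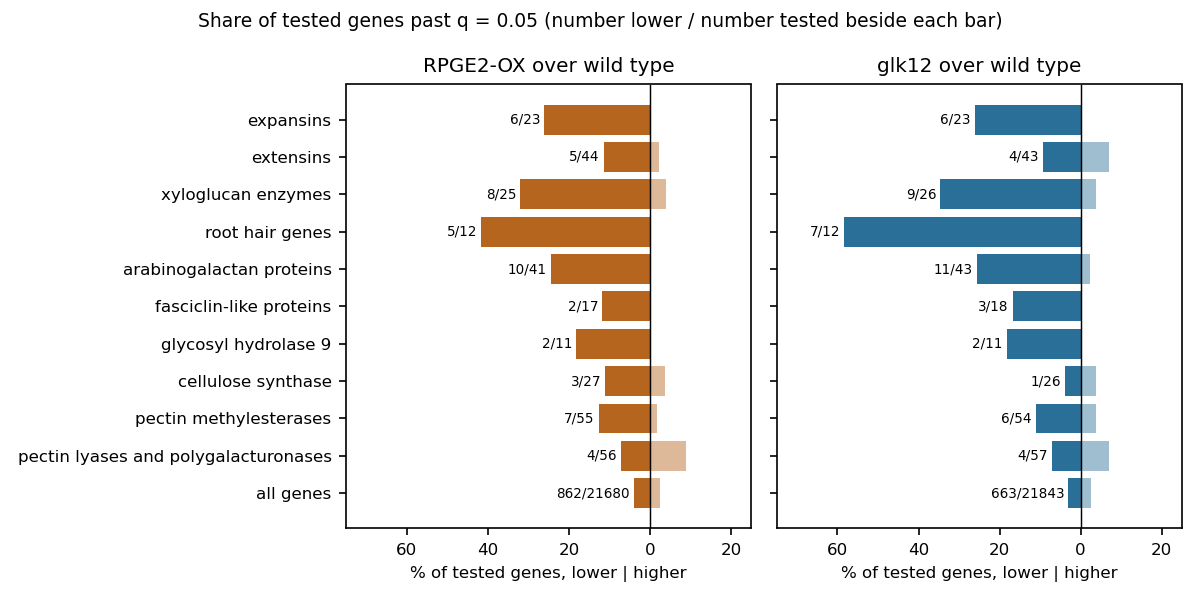
Share of tested genes called at q below 0.05 in the authors' deposited table, as percent, for each class and for all tested genes, in RPGE2-OX and glk12 over the wild type, split into higher and lower. Expansins and xyloglucan enzymes had 26.1% to 34.6% of tested members lower, extensins 11.4% in RPGE2-OX and 9.3% in glk12, and all tested genes 3.98% in RPGE2-OX and 3.04% in glk12.

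Expansins were lower or not called in both lines. With 23 tested, the 0 called higher are near the 2.57% of all tested genes higher in RPGE2-OX and 2.63% in glk12. By the authors' deposited table, 6 of 23 tested expansins were lower in RPGE2-OX and 6 of 23 in glk12, which is 26.1% in each. Of all tested genes, 3.98% were lower in RPGE2-OX and 3.04% in glk12. The median deposited log2 ratio of expansins was -0.27 in RPGE2-OX and -0.49 in glk12. Medians over all tested genes were 0.01 in RPGE2-OX and 0.02 in glk12. A deposited ratio below 0 was held by 17 of 23 expansins in RPGE2-OX and by 21 of 23 in glk12. Over all tested genes 47.8% lay below 0 in RPGE2-OX and 47.7% in glk12.

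The largest called change among expansins was that of EXPB1, a beta-expansin at chr2:8940833-8942706 (TAIR10.1, plus strand). Its deposited log2 ratio was -2.28 in RPGE2-OX (implied SE 0.56 at most, q = 0.0018) and -2.03 in glk12 (implied SE 0.50 at most, q = 0.0019). By the authors' deposited values EXPB1 was lower by 4.85-fold in RPGE2-OX and by 4.08-fold in glk12. EXPB3, the other tested beta-expansin, had deposited log2 ratios of -0.61 in RPGE2-OX (q = 0.0018) and -0.78 in glk12 (q = 0.0019). Both tested beta-expansins of 6 annotated were thus lower in both lines.

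Of 24 alpha-expansins, 17 were tested in each line and 4 were lower in each, with median deposited log2 ratios of -0.24 in RPGE2-OX and -0.54 in glk12. EXPA8 had deposited ratios of -0.72 in RPGE2-OX (q = 0.0018) and -0.78 in glk12 (q = 0.0019). EXPA4 had -0.46 in RPGE2-OX (q = 0.01) and -0.65 in glk12 (q = 0.0049) in the authors' deposited table. EXPA11 was lower by 1.43-fold in RPGE2-OX (log2 ratio -0.52, q = 0.032) and by 2.37-fold in glk12 (log2 ratio -1.25, q = 0.0019) by the deposited values. These 3 alpha-expansins were lower in both lines.

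The remaining alpha-expansin calls were made in 1 line each. EXPA17, known from lateral root emergence, was 2.96-fold lower in RPGE2-OX by the deposited value (log2 ratio -1.57, implied SE 0.52, q = 0.044). Its deposited log2 ratio in glk12 was -1.60 with an implied SE of 0.58 and q = 0.083, so it was not called there. EXPA18, an expansin of root hairs, was lower by 1.82-fold in glk12 (deposited ratio -0.86 in log2, implied SE 0.29, q = 0.048), and had -0.60 with q = 0.059 in RPGE2-OX. For both genes the deposited ratios of the lines lay closer together than the SE of their difference, so a call in 1 line is no sign of a difference between lines.

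Uncalled expansins covered both signs. EXPA7, the partner of EXPA18 in root hairs, had deposited log2 ratios of -0.34 in RPGE2-OX (q = 0.63) and -0.85 in glk12 (q = 0.21). EXPA16 had 0.06 in RPGE2-OX (q = 0.98) and 0.86 in glk12 (q = 0.079) in the authors' deposited table. EXPA21 had -1.23 in RPGE2-OX (q = 0.62) and -0.92 in glk12 (q = 0.78), deposited ratios as large as those of called genes. EXPA10, an expansin of leaf growth, had deposited ratios of 0.29 in RPGE2-OX (q = 0.27) and -0.54 in glk12 (q = 0.1). Of the 4 expansin-like genes, all tested, 0 were called, and EXLA3 had -0.66 in RPGE2-OX (q = 0.43) and -0.19 in glk12 (q = 0.95) in the deposited table.

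**Figure D2:**
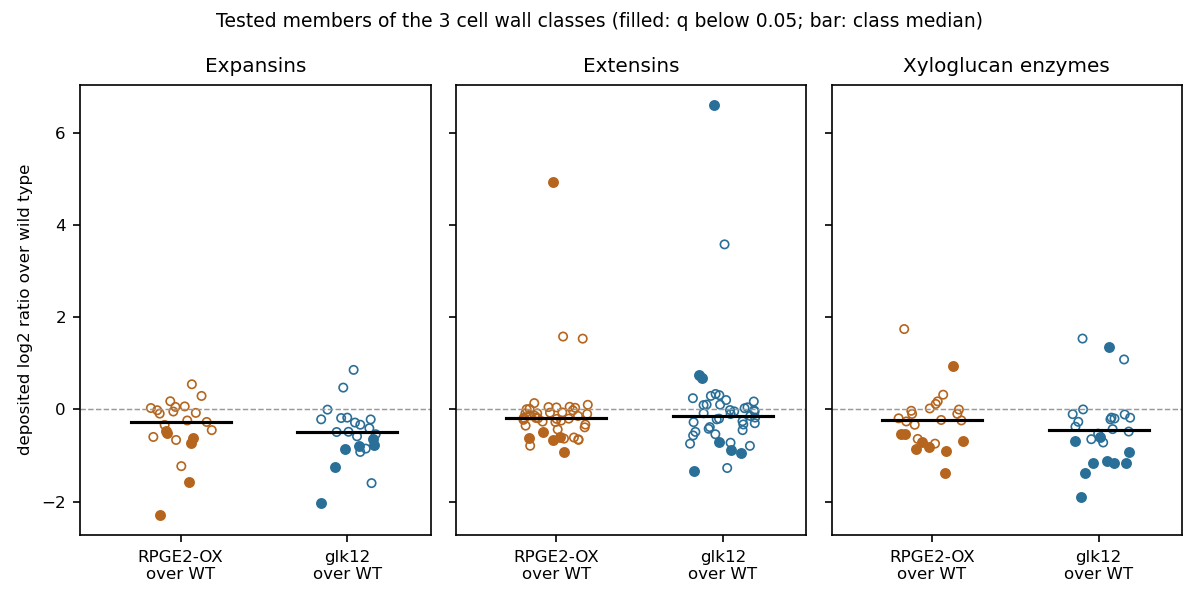
Deposited log2 ratio of every tested member over the wild type, by class, in RPGE2-OX and glk12, with 1 point per gene and called genes (q below 0.05) filled. Expansin ratios ran from -2.28 to 0.55 in RPGE2-OX and from -2.03 to 0.86 in glk12, and AT1G26240 stood highest among extensins at 4.93 in RPGE2-OX and 6.60 in glk12.

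Extensins were called in both directions. By the authors' deposited table, 5 of 44 tested extensins were lower and 1 higher in RPGE2-OX, and 4 of 43 were lower and 3 higher in glk12. Their median deposited log2 ratio was -0.19 in RPGE2-OX and -0.14 in glk12. Most of the lower calls fell in 1 group of descriptions, pollen Ole e 1 allergen and extensin family protein, which holds 27 of the 56 rows. In that group 4 of 21 tested genes were lower in RPGE2-OX and 3 of 20 in glk12. Without it, the deposited table calls 1 of 23 tested extensins lower in each line, with 1 higher in RPGE2-OX and 2 higher in glk12. That lower share, 4.35% in each line, is near the 3.98% in RPGE2-OX and 3.04% in glk12 of all tested genes. These Ole e 1 rows are placed with extensins by their description, and many are small secreted proteins and no classical extensins.

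Of the Ole e 1 genes, 3 were lower in both lines. AT3G09925 was lower by 1.58-fold in RPGE2-OX (deposited log2 ratio -0.66, q = 0.018) and by 2.54-fold in glk12 (-1.34, q = 0.0019). AT2G47540 had deposited log2 ratios of -0.61 in RPGE2-OX (q = 0.018) and -0.94 in glk12 (q = 0.0089). MOP10, a proline-rich protein of root hair growth, had -0.59 in RPGE2-OX (q = 0.02) and -0.88 in glk12 (q = 0.012) in the deposited table. AT2G47530, next to AT2G47540 on chromosome 2, had deposited ratios of -0.65 in RPGE2-OX (q = 0.28) and -1.27 in glk12 (q = 0.085).

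The neighbours AT3G16660 (chr3:5676749-5678099) and AT3G16670 (chr3:5681380-5682362) had unlike values in the lines. AT3G16670 was lower in RPGE2-OX (deposited log2 ratio -0.93, implied SE 0.23 at most, q = 0.0018) and had 0.10 in glk12 (q = 0.92). AT3G16660 was higher in glk12 (deposited log2 ratio 0.68, implied SE 0.20, q = 0.016) and had -0.27 in RPGE2-OX (q = 0.34). The difference RPGE2-OX minus glk12 was -0.95 ± 0.25 for AT3G16660 (SE, 95% interval -1.43 to -0.47). For AT3G16670 it was -1.04 ± 0.30 (SE, 95% interval -1.62 to -0.45). Neither passed a normal test of the difference after Benjamini-Hochberg adjustment over 21380 genes. AT3G16660 passed when other genes' errors at their bound were replaced by borrowed ones, a choice made after seeing the data. Its own SE was the same in both versions, and the adjustment over all genes alone moved it.

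Among the remaining extensins the largest deposited ratios belonged to AT1G26240, a proline-rich extensin-like gene at chr1:9077874-9079646 (TAIR10.1, minus strand). It was higher in both lines, with deposited log2 ratios of 4.93 in RPGE2-OX (implied SE 1.60, q = 0.036) and 6.60 in glk12 (implied SE 2.15, q = 0.041). These are 30.5-fold in RPGE2-OX and 97.1-fold in glk12 by the deposited values, with errors larger than those of any other called member. Its neighbour AT1G26250 had 1.54 in RPGE2-OX (q = 0.44) and 3.58 in glk12 (q = 0.24) in the authors' deposited table. The level behind these ratios is unknown, since the table lists none.

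EXT10, an extensin-like gene of root hairs, was lower in both lines, with deposited log2 ratios of -0.49 in RPGE2-OX (q = 0.029) and -0.71 in glk12 (q = 0.029). EXT4 was 1.68-fold higher in glk12 (deposited log2 ratio 0.75, implied SE 0.22, q = 0.016) and had 0.05 in RPGE2-OX (q = 0.96). EXT3, which builds the scaffold of the embryo wall, had deposited ratios of 0.01 in RPGE2-OX (q = 0.99) and 0.29 in glk12 (q = 0.45). The 3 leucine-rich repeat extensins and the 3 extensin-like receptor kinases had 0 calls in either line. LRX1, a leucine-rich repeat extensin that shapes root hairs, had deposited ratios of -0.43 in RPGE2-OX (q = 0.25) and -0.18 in glk12 (q = 0.88). LRX2, which acts with it, had -0.66 in RPGE2-OX (q = 0.075) and -0.74 in glk12 (q = 0.17) in the deposited table. Among tested Ole e 1 genes, the largest uncalled ratios were the deposited 1.58 of AT2G34700 (q = 0.27) and -0.79 of AT5G47635 (q = 0.74) in RPGE2-OX. Among those tested in glk12 they were the deposited -1.27 of AT2G47530 and -0.79 of AT3G26960 (q = 0.66).

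**Figure D3:**
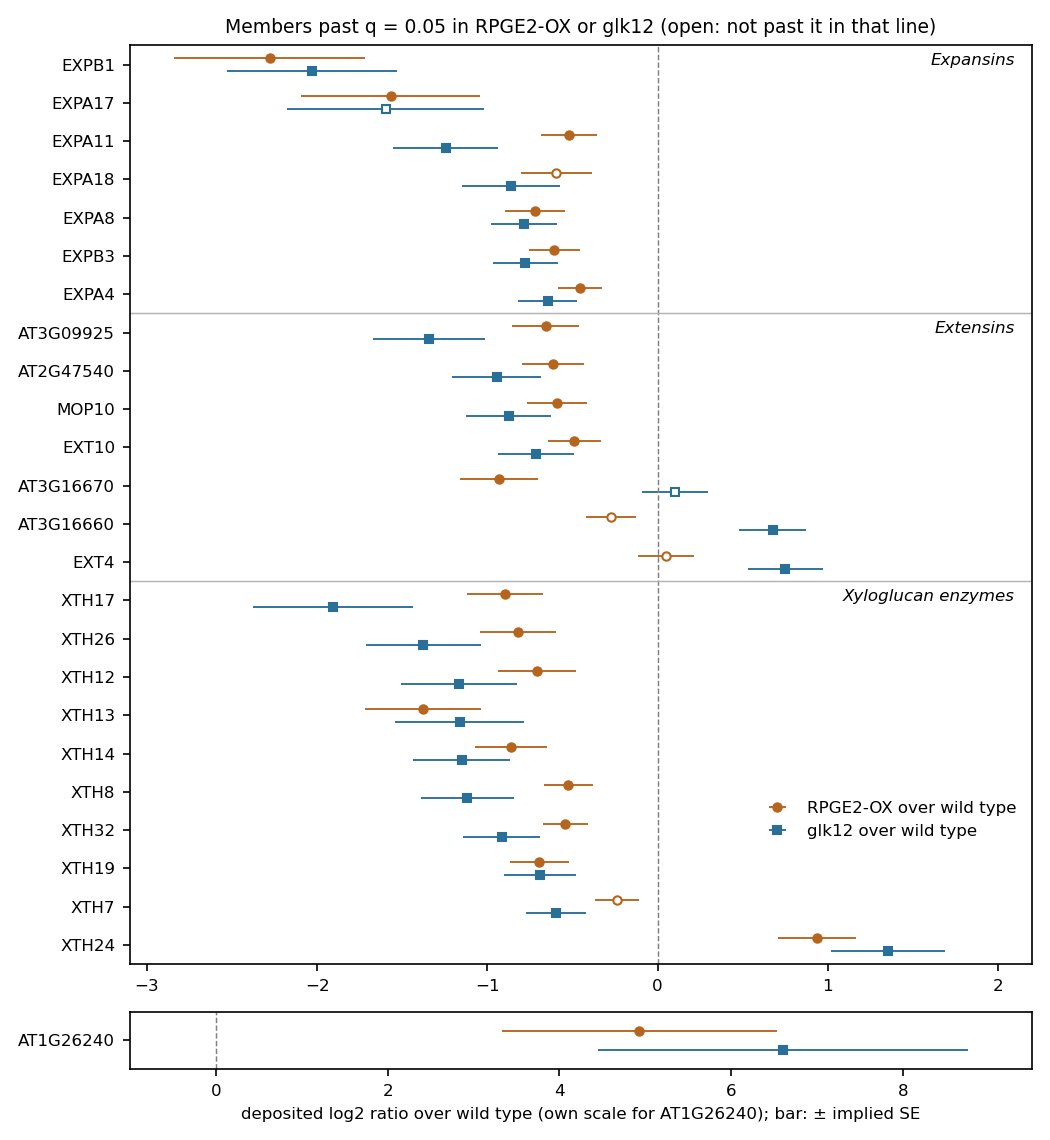
Deposited log2 ratio over the wild type of the 25 members called in at least 1 line, by class, with RPGE2-OX and glk12 side by side and bars for the implied SE, an upper bound at the lowest q. In 17 genes both lines lie below 0 with a call, and AT1G26240 and XTH24 lie above 0 in both with a call.

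The promoters of some expansins and Ole e 1 genes are shown for a sequence that the choice of members did not use. The root hair element, bound in Arabidopsis by the transcription factors that start root hairs, was searched by its core. The core was taken as TG, then 3 or 4 bases of any kind, then GCACG or TCACG, on either strand, in the 250 bases before the annotated start of each gene in the RefSeq annotation of TAIR10.1. It stood in 4.12% of 27443 protein-coding promoters, in 8.4% of the members (10 of 119) and in 19% of members lower in at least 1 line (4 of 21). It was found in 8.82% of members tested and not called (6 of 68) and in 0 of 4 members called higher. The members with a core were EXPA7, EXPA18, LRX1, MOP10, AT1G77400, AT2G43150, AT2G47530, AT2G47540, AT3G09925 and AT5G15780, and 0 XTH genes. The 4 that were called lower are printed with EXPA7, the root hair expansin that was not called, each as the 250 bases before the start, 5′ to 3′ on the gene's strand, with the core in capitals.
EXPA7: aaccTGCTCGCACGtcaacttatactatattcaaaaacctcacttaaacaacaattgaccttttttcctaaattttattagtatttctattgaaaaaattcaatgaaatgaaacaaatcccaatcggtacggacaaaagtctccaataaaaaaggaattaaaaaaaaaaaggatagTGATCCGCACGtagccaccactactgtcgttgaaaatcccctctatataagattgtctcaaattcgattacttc
EXPA18: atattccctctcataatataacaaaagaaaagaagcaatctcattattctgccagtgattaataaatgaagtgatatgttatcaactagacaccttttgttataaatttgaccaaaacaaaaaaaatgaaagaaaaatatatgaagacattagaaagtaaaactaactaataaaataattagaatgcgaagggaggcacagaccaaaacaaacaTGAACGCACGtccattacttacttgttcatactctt
AT2G47540: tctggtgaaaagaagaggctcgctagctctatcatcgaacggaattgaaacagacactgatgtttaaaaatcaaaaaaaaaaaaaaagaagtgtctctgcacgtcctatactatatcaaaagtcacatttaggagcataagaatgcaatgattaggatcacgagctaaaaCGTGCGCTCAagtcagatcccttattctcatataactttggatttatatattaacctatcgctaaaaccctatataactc
AT3G09925: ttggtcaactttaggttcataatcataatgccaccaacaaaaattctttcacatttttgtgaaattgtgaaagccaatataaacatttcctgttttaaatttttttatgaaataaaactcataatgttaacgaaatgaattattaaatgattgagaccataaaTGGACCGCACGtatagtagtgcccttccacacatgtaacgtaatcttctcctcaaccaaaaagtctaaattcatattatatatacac
MOP10: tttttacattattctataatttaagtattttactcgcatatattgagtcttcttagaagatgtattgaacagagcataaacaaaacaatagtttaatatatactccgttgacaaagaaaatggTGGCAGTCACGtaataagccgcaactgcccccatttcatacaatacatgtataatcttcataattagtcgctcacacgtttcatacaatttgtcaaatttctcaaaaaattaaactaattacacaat

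The EXPA7 promoter is chr1:4276255-4276504 on the plus strand of TAIR10.1, and its cores begin 246 and 74 bases before the start. That of EXPA18 is chr1:23331313-23331562, plus strand, with the core 36 bases before the start, and its last 101 bases lie in AT1G62978, a gene on the opposite strand. AT2G47540 has chr2:19505577-19505826, plus strand, with a core 80 bases before the start that reads on the reverse strand. AT3G09925 has chr3:3052851-3053100, minus strand, with the core 87 bases before the start, and MOP10 has chr5:1629360-1629609, plus strand, with the core 127 bases before it.

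The other motifs searched in the same windows were GATTCT, described for GLK binding in Arabidopsis, the G-box CACGTG and the TATA sequence TATAAA. The letters GATTCT stood in 15.9% of all promoters, in 19.3% of members and in 14.3% of members lower in at least 1 line (3 of 21). CACGTG stood in 6.49% of all promoters, in 2.52% of members and in 0 of those 21. TATAAA stood in 47.3% of all promoters, in 56.3% of members and in 66.7% of the lower members (14 of 21). A match is a description of the letters and no sign of binding.

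Xyloglucan enzymes had the largest share of lower calls of the 3 classes in both lines, a description with no test between classes. By the authors' deposited table, 8 of 25 tested XTH genes were lower in RPGE2-OX, which is 32%, and 9 of 26 in glk12, which is 34.6%. The same table calls 1 higher in each line. Their median deposited log2 ratio was -0.24 in RPGE2-OX and -0.45 in glk12, and 19 of 25 lay below 0 in RPGE2-OX and 22 of 26 in glk12. All 8 lower calls of RPGE2-OX were also lower in glk12, where XTH7 was added. Of the 862 genes lower in RPGE2-OX over all tested genes, 423 were also lower in glk12. The shares of all tested genes were 3.98% lower and 2.57% higher in RPGE2-OX, and 3.04% lower and 2.63% higher in glk12.

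XTH17, an enzyme of root and shoot growth, was lower by 1.86-fold in RPGE2-OX (deposited log2 ratio -0.90, q = 0.0018) and by 3.75-fold in glk12 (-1.91, q = 0.0019). Its difference RPGE2-OX minus glk12 was 1.01 ± 0.52 (SE), which did not pass the adjusted test. XTH14 and XTH26, both active in roots and root hairs, were also lower in both lines. XTH14 had deposited log2 ratios of -0.86 in RPGE2-OX (q = 0.0018) and -1.15 in glk12 (q = 0.0019). XTH26 had -0.82 in RPGE2-OX (q = 0.007) and -1.38 in glk12 (q = 0.0019) in the deposited table.

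XTH12 and XTH13 lie close together on chromosome 5. XTH13 was lower by 2.60-fold in RPGE2-OX (deposited log2 ratio -1.38, q = 0.0018) and by 2.24-fold in glk12 (-1.16, q = 0.041). XTH12 was lower by 1.63-fold in RPGE2-OX (deposited log2 ratio -0.71, q = 0.037) and by 2.25-fold in glk12 (-1.17, q = 0.016). XTH8 had deposited ratios of -0.52 in RPGE2-OX (q = 0.007) and -1.12 in glk12 (q = 0.0019), and XTH32 had -0.54 in RPGE2-OX (q = 0.0018) and -0.92 in glk12 (q = 0.0019). XTH7 was called in glk12 (deposited log2 ratio -0.59, q = 0.019) and had -0.24 in RPGE2-OX (q = 0.35).

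XTH24, known from the shoot meristem, was the one XTH gene called higher. Its deposited log2 ratio was 0.94 in RPGE2-OX (implied SE 0.23 at most, q = 0.0018) and 1.35 in glk12 (implied SE 0.33 at most, q = 0.0019), which is 1.91-fold in RPGE2-OX and 2.56-fold in glk12. XTH24 lies next to XTH18 and XTH19 on chromosome 4, in chr4:14819192-14830224 of TAIR10.1. XTH19 was lower by 1.62-fold in RPGE2-OX (deposited log2 ratio -0.69, q = 0.0018) and by 1.62-fold in glk12 (-0.69, q = 0.024). XTH18 had deposited ratios of -0.26 in RPGE2-OX (q = 0.36) and -0.48 in glk12 (q = 0.14). Thus 1 end of the row was higher and the other lower in both lines.

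The group on chromosome 5, chr5:23300321-23308680, held unlike values too. XTH25 had deposited log2 ratios of 1.74 in RPGE2-OX (q = 0.052) and 1.08 in glk12 (q = 0.36), above 0 beside the lower XTH12 and XTH13. TCH4, the touch-induced XTH22, had 0.02 in RPGE2-OX (q = 0.98) and -0.10 in glk12 (q = 0.92) in the deposited table. Another gene lies between XTH12 and XTH13. Of the called members, 1.6% of 50-base windows at most were shared with another gene, and 0 of the 7 members with at least 10% of windows shared were called.

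**Figure D4:**
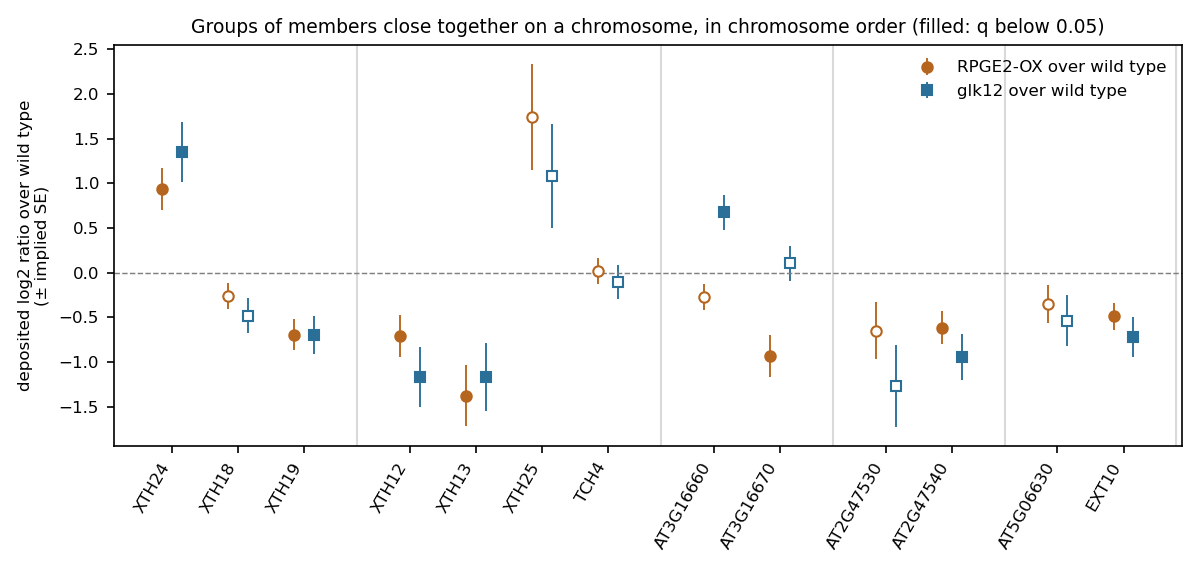
Deposited log2 ratio over the wild type of members that lie close together, in chromosome order, in RPGE2-OX and glk12, with bars for the implied SE and called genes filled. XTH24 stood at 0.94 in RPGE2-OX and 1.35 in glk12 beside XTH19 at -0.69 in each, and AT3G16660 and AT3G16670 were each called in 1 line.

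Other XTH genes were not called. XTH10 had deposited log2 ratios of -0.74 in RPGE2-OX (q = 0.17) and -0.65 in glk12 (q = 0.43), and XTH21 had -0.64 in RPGE2-OX (q = 0.22) and -0.72 in glk12 (q = 0.33). XTH15 had -0.10 in RPGE2-OX (q = 0.9) and 0.00 in glk12 (tested, with a q just below 1) in the authors' deposited table. XTH29, tested in glk12 alone, had a deposited ratio of 1.54 with q = 0.19. The rule's wording misses XTH31, described as a xyloglucan endo-transglycosylase-related protein, which was lower in both lines with deposited ratios of -0.83 in RPGE2-OX (q = 0.0018) and -0.84 in glk12 (q = 0.0019).

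The lines were compared by the difference RPGE2-OX minus glk12 for 91 members tested in both. After Benjamini-Hochberg adjustment over 21380 genes the normal test called 0 members, beside 0.15% of all genes, and at an unadjusted p under 0.05 it gave 11 members, beside 3.6% of all genes. With borrowed errors it called 1 member, AT3G16660, beside 0.374% of all genes. The 11 were 6 expansins, 3 extensins and 2 XTH genes. EXPA10 had a difference of 0.83 ± 0.25 (SE), and EXPA11 had 0.73 ± 0.35 (SE), and neither passed the adjusted test. Adding both errors overstates the error of a difference, because the wild type is shared. A p that misses the threshold does not show that the lines act alike.

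Root hair genes moved beside several members. Of 12 listed root hair genes, the authors' deposited table calls 5 lower in RPGE2-OX and 7 in glk12, and 0 higher in either. Over all tested genes 3.98% were lower in RPGE2-OX and 3.04% in glk12. The median deposited log2 ratio of the 12 was -0.44 in RPGE2-OX and -0.88 in glk12. RHD6 was the only one above 0, at 0.12 in glk12 (q = 0.96). COW1, a phosphatidylinositol transfer protein of root hairs, had deposited ratios of -0.56 in RPGE2-OX and -0.95 in glk12, both called. RHD2, the oxidase of root hair tips, was called lower in glk12 with a deposited ratio of -0.71, as was the transcription factor RSL2 with -1.33. Neither was called in RPGE2-OX, where RHD2 had -0.43 (q = 0.065) and RSL2 had -0.45 (q = 0.48). Of 5 root markers, COBL9, itself a root hair gene, was the one called, with deposited ratios of -0.68 in RPGE2-OX (q = 0.018) and -0.89 in glk12 (q = 0.023). Among the uncalled root markers, SCR lay above 0 in both lines, at 0.068 in RPGE2-OX and 0.212 in glk12. PIN2 had -0.328 in RPGE2-OX and 0.035 in glk12, and WER and SHR lay below 0 in both lines. The part of root hair genes in the results for EXPA18, MOP10, EXT10, XTH14 and XTH26 was not tested.

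Other wall genes had these calls, to be read beside the 3.98% of all tested genes lower in RPGE2-OX and 3.04% in glk12. Among arabinogalactan proteins, wall glycoproteins related to extensins, the deposited table calls 10 of 41 tested lower in RPGE2-OX and 11 of 43 in glk12. Of the cellulose synthase family, 3 of 27 tested genes were lower and 1 higher in RPGE2-OX, and 1 of 26 was lower and 1 higher in glk12, in the authors' deposited table. The glk12 shares of that family, 3.85% in each direction, are near those of all tested genes. The list of pectin methylesterases was drawn by the words of the description and also takes in rows described as inhibitors of the enzyme. In the same deposited table, 7 of 55 tested genes of this list were lower and 1 higher in RPGE2-OX. In glk12, 6 of 54 were lower and 2 higher. Of 10 reference genes listed, 0 were called in the deposited table, with median deposited log2 ratios of 0.02 in RPGE2-OX and 0.22 in glk12. Relative to that median the class medians of glk12 were -0.71 for expansins, -0.36 for extensins and -0.67 for XTH genes.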

How the data were processed

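The data are RNA sequencing of 9 whole-seedling libraries, 3 per genotype. Per the submitters' processing notes, the tools were CASAVA 1.8.2, TopHat, Cufflinks and Cuffdiff with the build TAIR10, listed without their roles. Other versions, filters and the use of strand in counting are unstated in these sources. The deposited table holds, per the file headers, log2 ratios of RPGE2-OX and of the glk1/2 mutant over Col-0, each with a q value (a p-value adjusted by the authors), and its tests and the unit behind the ratios are not stated.

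Infinite ratios stored as spreadsheet text were decoded by requiring the same sign in both columns, which held for 1294 of 1294 genes infinite in both. A q of 1 was read as untested. A call is a deposited q below 0.05. The planned test was the authors' call, and medians describe each class. Raw p values were recovered by inverting the Benjamini-Hochberg adjustment. Among genes with q below 0.5, 99.8% of them in RPGE2-OX and 99.9% in glk12 were multiples of 5e-05 within a tolerance of 0.02 steps. The number of tests was chosen to make that share highest, so the share is no separate check of the recovery. The lowest p was shared by 10 members in RPGE2-OX and 11 in glk12, where an implied error is an upper bound. Differences between lines used a normal two-sided test with summed variances. Where the normal quantile of a p was below 0.1, the larger of a gene's errors was used.

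Tested on simulated data for that difference (21380 genes, 50 changed per size), the method called 0%, 2%, 14% and 34% of log2 differences of 0.5, 1, 2 and 4 that lay in 1 line, with 1 false call among 26, and 2%, 44%, 90% and 88% of differences split in opposite directions, with 7 false calls among 119. With borrowed errors, taken from the other comparison for genes at the lowest p in 1 line, it called 0%, 6%, 50% and 58% of the differences in 1 line, with 2 false calls among 59. The simulated lines had independent errors and few changed genes, whereas the real comparisons share the wild type libraries. These rates may therefore differ from those of the real comparison.

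The rule for named genes took all called members and, per class and line, the 3 tested members with the largest uncalled ratios. EXPA7, EXPA10, EXT3, LRX1, LRX2, TCH4, XTH15, XTH18, XTH31 and AT5G06630 fall outside it and were chosen after their values were seen. Members and gene lists were chosen with earlier results of these data known. Of the members, 119 of 119 were placed in RefSeq TAIR10.1 by locus, and the table itself gives no coordinates. Promoters are the 250 bases before the annotated start, and shared windows are 50 bases long. Protein sequences were not used here. Python 3.11.15, pandas 2.3.3, numpy 2.4.6, scipy 1.17.1 and matplotlib 3.10.9 were used. Alternatives were q below 0.01 or 0.1, a 2-fold floor, centring, and other rules for members.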

Additional observations from a re-analysis of the deposited data

How the results depend on the processing

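Of 44 calls of single genes, 25 passed at q below 0.01 and 15 with a 2-fold floor. A looser q and centring with q unchanged cannot lose a call and are no check of them. At q below 0.01 the deposited table calls 3 expansins, 1 extensin and 7 XTH genes lower and 1 XTH gene higher in RPGE2-OX. In glk12 it calls 5 expansins, 2 extensins and 5 XTH genes lower and 1 XTH gene higher. Extensins called higher fell to 0 in both lines. With the 2-fold floor it calls 2 expansins, 0 extensins and 1 XTH gene lower in RPGE2-OX, and 1 extensin and 0 XTH genes higher. For glk12 that floor leaves 2 expansins, 1 extensin and 6 XTH genes lower, and 1 extensin and 1 XTH gene higher. At q below 0.1 there are 7 expansins, 6 extensins and 8 XTH genes lower, and 1 extensin and 2 XTH genes higher, in RPGE2-OX. The glk12 counts are then 7 expansins, 5 extensins and 9 XTH genes lower, and 1 expansin, 3 extensins and 1 XTH gene higher. Shares of all tested genes at these settings were not computed, so the counts cannot be read against them. Another rule left out rows described as kinase, leucine-rich, LRR or -like, and it keeps the Ole e 1 rows. With it, 0 extensins were higher and 4 lower in RPGE2-OX, and 2 were higher and 3 lower in glk12. Without the Ole e 1 rows, a choice made after seeing the data, 1 extensin was lower in each line. The expansin median in RPGE2-OX over every finite ratio was -0.045, since untested genes listed at 0 enter it. At an adjusted p below 0.1, and with borrowed errors at 0.05, a choice made after seeing the data, 1 extensin differed between the lines.

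Nearest the threshold were EXPA17 (deposited log2 ratio -1.57, q = 0.044) inside and XTH25 (1.74, q = 0.052) outside in RPGE2-OX, and EXPA18 (-0.86, q = 0.048) inside and EXPA16 (0.86, q = 0.079) outside in glk12. No paired analysis was possible because the table holds 1 value per gene and comparison and no replicate values, and for the same reason no library could be left out. Depth is unknown. EXPA18 and EXT10 overlap a gene on the opposite strand, and the use of strand in counting is not given.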

Other observations

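Further wall genes that belong to no class above had these values in the authors' deposited table. Over all tested genes, 3.98% were lower and 2.57% higher in RPGE2-OX, and 3.04% were lower and 2.63% higher in glk12. For lists this small, 0 higher is near those shares. Each list of wall genes was chosen by the words of the description. A gene can be counted in more than 1 list, as for fasciclin-like proteins and the arabinogalactan proteins above. Fasciclin-like proteins, wall glycoproteins with an adhesion domain, were lower in 2 of 17 tested genes in RPGE2-OX and 3 of 18 in glk12, and higher in 0. The list of pectin lyases, pectate lyases and polygalacturonases also takes in rows described as pectin lyase-like, which need not cut pectin. In the deposited table, 4 of 56 tested genes of this list were lower and 5 higher in RPGE2-OX. In glk12, 4 of 57 were lower and 4 higher. Glycosyl hydrolase family 9 genes, which hold the endoglucanases of cellulose synthesis, had 2 of 11 tested genes lower in each line and 0 higher in the deposited table. Of 4 listed leaf genes of carbon fixation, the deposited table calls 2 lower in RPGE2-OX and 1 in glk12. RBCS3B was lower in both lines, with deposited log2 ratios of -0.74 in RPGE2-OX and -0.82 in glk12. RCA, the activase of Rubisco, had -0.52 in RPGE2-OX (q = 0.018) and -0.23 in glk12 (q = 0.72) in the deposited table. RBCS1A and RBCS2B were not called, with deposited ratios of -0.18 and 0.04 in RPGE2-OX and -0.11 and -0.12 in glk12.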
